A study of Mus musculus with 70 samples.

Results

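The comparison set the ventral tegmental area (VTA) against the lateral hypothalamic area (LHA) in adult mice, a pair of connected regions of the reward and feeding circuits. Its members were the 3 libraries labelled VTA and the 3 labelled LHA, 6 of the 70 libraries of the series. They were taken by region label, with earlier results of these data known. All 6 came from male C57BL/6NTac mice at postnatal day 56 (P56), with no treatment or transgene. The study sequenced bulk messenger RNA from punch biopsies of frozen brain sections, covering regions involved in energy balance. Per the study's methods, the VTA and LHA libraries each held tissue pooled from several mice. Fewer adult mice than adult libraries were used, so libraries of different regions can share animals. Nothing in the labels ties a library to a mouse, and the spread between the 3 libraries of a region was therefore the spread between pools.

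The VTA holds the cell bodies of midbrain dopamine neurons that project to the nucleus accumbens and the prefrontal cortex, mixed with GABA and glutamate neurons. The LHA holds the neurons that make orexin (hypocretin, Hcrt) and those that make melanin-concentrating hormone (MCH, from Pmch), peptides known for their roles in arousal and feeding. Orexin and neurotensin axons from the LHA reach the VTA, where their receptors are found. In bulk tissue, fewer cells of a type and less RNA per cell cannot be told apart, and this holds for every value given here.

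Expression was read as TPM, a transcript abundance corrected for transcript length and library size, rescaled so that all genes other than the 13 protein-coding genes of the mitochondrial genome (named mt-) summed to the same total as before. The 6 libraries held 17079231 to 19285427 estimated counts. VTA replicate 1 stood apart from the other 5. Its mt- genes took 39.6% of TPM, against 6.02% and 14.2% in VTA replicates 2 and 3 and 8.48% to 9.12% in LHA. Over all adult libraries but VTA replicate 1 the range was 5.55% to 14.2%. That range includes VTA replicates 2 and 3, and its upper end equals the value of VTA replicate 3. After the mt- genes were removed it still stood apart. Gm11027 held 14.9% of its rescaled TPM, against at most 1.12% in the other 5 libraries, and its part in the result was not tested. The median gene lay 0.39 lower on the log2 scale in VTA replicate 1 than in the mean of the other two. The correlation across genes between VTA replicate 1 and the other VTA libraries was 0.90 and 0.93, against 0.97 between LHA libraries. VTA replicates 2 and 3 correlated at 0.9558. With the LHA libraries, VTA replicate 2 correlated at 0.9539 to 0.9553, VTA replicate 3 at 0.938 to 0.9408 and VTA replicate 1 at 0.8855 to 0.891. By this measure VTA replicate 2 was about as close to LHA as to VTA replicate 3. Genes are not independent replicates, and these values are descriptions. The study's overview of its samples lists collection batches for both regions, some of them shared, but no label ties a library to one of them, and batch was not tested. Counts of calls are given with all 6 libraries and without VTA replicate 1, and so are the differences of most genes named, the second value in each case being the one without that library.

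A gene was called when its limma adjusted p (Benjamini-Hochberg, over all genes tested) was under 0.05 and the difference exceeded 1 on the log2(rescaled TPM + 0.5) scale, on which all log2 differences below are VTA minus LHA. Standard errors (SE) came from the spread pooled over 57 adult libraries of 18 regions. Of 16526 genes tested, 299 (1.81%) were called higher in VTA and 643 (3.89%) higher in LHA. Without VTA replicate 1 the counts were 213 (1.29%) and 305 (1.85%), of which 178 and 266 were shared with the first calls. Counts of called genes in the lists below stand beside these shares. Statements that libraries did not overlap stand beside the shares for that order. Every VTA library was above every LHA library for 5.54% of genes tested, and the reverse held for 23.1%. The scale itself moved the counts of calls over all genes. The median difference over all genes was -0.24 with all 6 libraries, -0.10 without VTA replicate 1 and -0.02 with median-of-ratios scaling. With that scaling 458 genes were called higher in VTA and 386 higher in LHA, so that 54.3% of calls were higher in VTA, against 31.7% before. The genes called in all 4 combinations of library set and scaling, a count chosen after the data were seen, numbered 177 higher in VTA (1.07%) and 210 higher in LHA (1.27%).

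**Figure D1:**
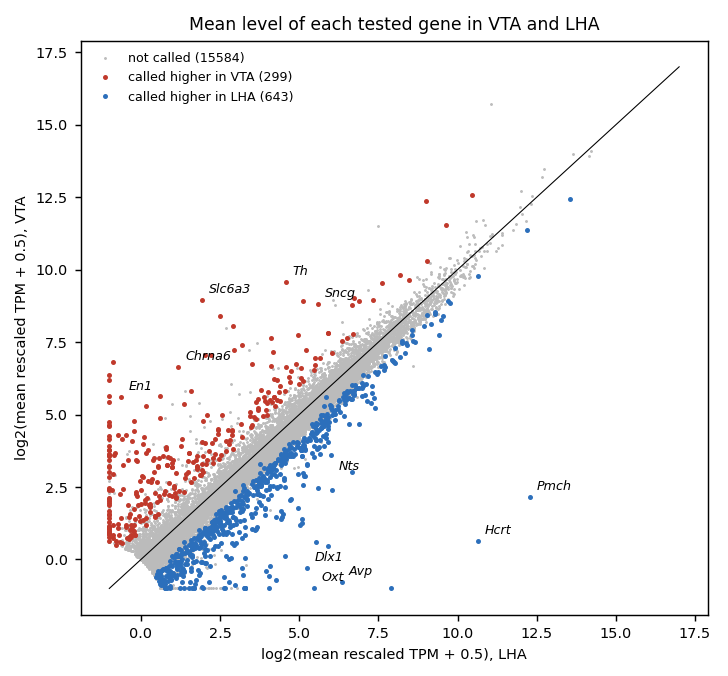
Mean level of each of the 16526 tested genes in LHA (x axis) and VTA (y axis), each as log2(mean rescaled TPM + 0.5), with the 299 genes called higher in VTA in red and the 643 called higher in LHA in blue. Hcrt and Pmch lie far below the line of equality at high LHA levels, and Th, Slc6a3 and En1 lie far above it.

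The called genes stood differently among the 18 adult regions. Of the 299 genes called higher in VTA, 188 (62.9%) had their highest mean in VTA, against 818 (4.95%) of all genes tested. Of the 643 called higher in LHA, 31 (4.82%) had their highest mean in LHA, against 253 (1.53%) of all genes tested, while 277 (43.1%) were highest in one of the 5 hypothalamic regions, against 4152 (25.1%) of all genes tested. Outside the hypothalamus the most frequent region of the highest mean for these genes was the nucleus accumbens (ACB), with 78 genes. The share of all genes tested that were highest in ACB is not given, so this count is a description only. Of the 177 genes called higher in VTA in all 4 combinations of library set and scaling, 90 (50.8%) had their highest mean in VTA. Of the 210 called higher in LHA in all 4, 15 (7.14%) were highest in LHA and 104 (49.5%) in a hypothalamic region. The direction of the call favours the shares in VTA, in LHA and in the hypothalamic regions, which include LHA, so they are descriptions. Hcrt, Pmch and Nts were called higher in LHA and had their highest mean there.

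Of 12 genes of dopamine synthesis, transport and breakdown, 7 were called higher in VTA and 0 higher in LHA, with or without VTA replicate 1. Their median difference was 2.35 with all 6 libraries, against -0.24 over all genes, and 2.61 without VTA replicate 1, against -0.10. Th, which encodes tyrosine hydroxylase, the rate-limiting enzyme of catecholamine synthesis, was at 395, 828 and 1050 TPM in VTA replicates 1, 2 and 3 and at 15.4, 31.5 and 22.9 TPM in LHA. Every VTA library was above every LHA library, although VTA replicate 1 held less than either of the others. The means were 758 ± 333 and 23.3 ± 8.09 TPM (SD, n = 3 each), a log2 difference of 4.94 ± 0.60 (SE, limma adjusted p = 4.96e-08) and of 5.35 without VTA replicate 1. Of the 18 regions, VTA had the highest Th mean and the parabrachial nucleus (PB) the next, at 85.0 TPM.

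Slc6a3, the plasma membrane dopamine transporter, was at 287, 554 and 648 TPM in VTA and at 1.94, 3.48 and 4.39 TPM in LHA. No library of one region came near the other, and the log2 difference, the largest of the pathway, was 7.02 ± 0.27 (limma adjusted p = 5.21e-24) and 7.37 without VTA replicate 1. The next highest region mean outside the pair was 7.47 TPM, in the arcuate nucleus (ARH). Slc18a2, the vesicular monoamine transporter, was at 139, 155 and 213 TPM against 8.19, 9.66 and 7.94 TPM. Ddc, the decarboxylase that makes dopamine from L-DOPA, was at 329, 468 and 666 TPM against 38.8, 36.0 and 28.0 TPM. Neither gene overlapped between regions, and their log2 differences were 4.20 and 3.77, or 4.33 and 4.02 without VTA replicate 1. The LHA held more Ddc and Th than Slc6a3. Slc10a4, a vesicle protein of monoamine and cholinergic neurons, was 4.44 (4.55 without VTA replicate 1) higher, with LHA replicate 1 at 12.3 TPM and the other LHA libraries at 3.40 and 5.83. Gch1, which makes the cofactor for tyrosine hydroxylase, was 2.81 (3.17) higher. Aldh1a1, an aldehyde dehydrogenase of a subset of dopamine neurons, was at 590.0, 817 and 809 TPM against 192, 203 and 191 TPM, a log2 difference of 1.90 (2.05). Maob, a monoamine oxidase that is not specific to dopamine neurons, was at 21.8 ± 0.802 and 24.6 ± 2.27 TPM and was not called.

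The promoters of Th and Slc6a3 for VTA and of Hcrt and Pmch for LHA are shown because these genes mark the dopamine neurons of VTA and the peptide neurons of LHA. They are RefSeq sequences of GRCm38.p6, from 250 bases before to 50 bases after each gene's start, written 5′ to 3′ on the gene's strand. They lie at chr7:142899946-142900245 (minus strand), chr13:73536497-73536796 (plus), chr11:100762882-100763181 (minus) and chr10:88090822-88091121 (plus). Capitals mark matches, on either strand, to 3 motifs that do not overlap in these windows: AAAGGTCA, the NBRE bound by NR4A2, TATAAA, the TATA box, and TGACGTCA, the cyclic AMP response element (CRE).
Th: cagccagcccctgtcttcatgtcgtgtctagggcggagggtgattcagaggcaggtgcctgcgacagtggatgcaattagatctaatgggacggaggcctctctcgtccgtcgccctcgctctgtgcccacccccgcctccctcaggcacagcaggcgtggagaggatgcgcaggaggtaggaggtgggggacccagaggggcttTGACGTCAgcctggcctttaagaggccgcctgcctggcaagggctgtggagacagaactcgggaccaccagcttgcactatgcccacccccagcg
Slc6a3: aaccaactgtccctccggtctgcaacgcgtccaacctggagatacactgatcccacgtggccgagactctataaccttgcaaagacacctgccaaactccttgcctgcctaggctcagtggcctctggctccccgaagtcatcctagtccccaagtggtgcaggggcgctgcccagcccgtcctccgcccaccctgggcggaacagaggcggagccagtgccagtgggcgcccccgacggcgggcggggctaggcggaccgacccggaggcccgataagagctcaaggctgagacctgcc
Hcrt: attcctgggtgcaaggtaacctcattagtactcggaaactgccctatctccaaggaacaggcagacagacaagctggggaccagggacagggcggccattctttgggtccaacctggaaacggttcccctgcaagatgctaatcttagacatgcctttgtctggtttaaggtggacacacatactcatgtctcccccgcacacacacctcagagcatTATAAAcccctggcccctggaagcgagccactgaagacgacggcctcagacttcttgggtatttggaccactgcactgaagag
Pmch: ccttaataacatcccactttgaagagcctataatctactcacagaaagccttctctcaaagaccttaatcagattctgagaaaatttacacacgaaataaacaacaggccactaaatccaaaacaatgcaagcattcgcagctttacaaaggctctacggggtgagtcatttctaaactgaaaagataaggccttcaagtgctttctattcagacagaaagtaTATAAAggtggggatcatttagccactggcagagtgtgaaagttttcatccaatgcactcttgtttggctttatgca
Th held the CRE 45 bases before its start, and 1.79% of 32851 RefSeq mouse promoters of the same length held that motif. Hcrt and Pmch each held TATAAA, 33 and 27 bases before the start, and 13.6% of all promoters held it at some position. Each share over all promoters counts a match anywhere in the window, on either strand. Slc6a3 held none of the 3. None of these 4 held AAAGGTCA, found in 1.51% of all promoters. Among the 12 genes of dopamine synthesis and transport, 10 had a promoter in the table, of which only that of Ddc held it. A match is a description of the letters and not a binding site.

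**Figure D2:**
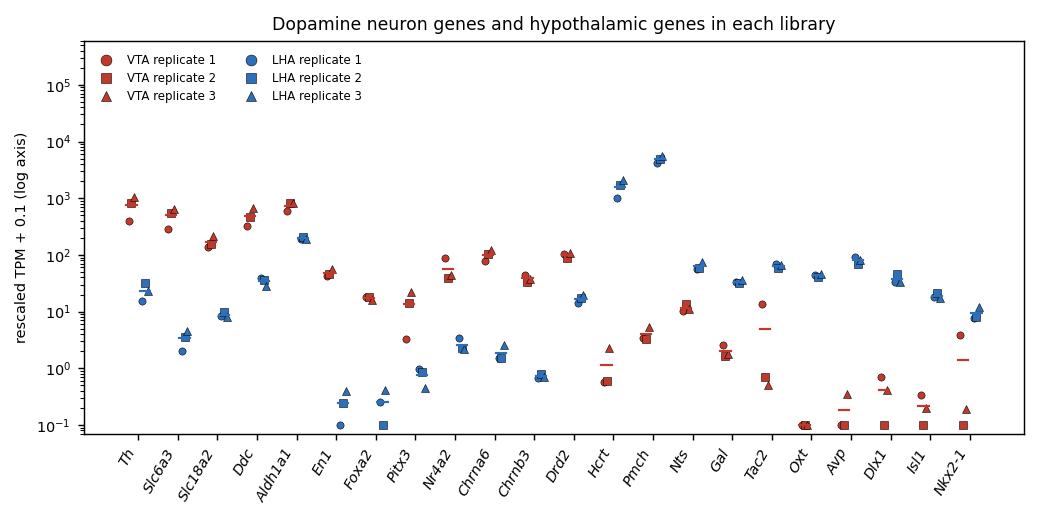
Rescaled TPM + 0.1 (log axis) of 12 dopamine neuron genes and 10 hypothalamic genes in each of the 3 VTA (red) and 3 LHA (blue) libraries, with horizontal lines at the means. Every gene shown has its 3 VTA libraries on one side of its 3 LHA libraries, and Tac2 and Nkx2-1 have VTA replicate 1 nearest to the LHA values.

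Transcription factors that specify and maintain midbrain dopamine neurons followed the same direction. Of 12 such genes, 9 were called higher in VTA, 8 without VTA replicate 1, and 0 higher in LHA, with a median difference of 2.19, and of 2.10 without that library. En1, a homeobox gene of the midbrain, was at 41.6, 46.2 and 57.4 TPM in VTA and at 0, 0.140 and 0.300 TPM in LHA. LHA was close to 0 in every library, and the log2 difference was 6.25 ± 0.23 (limma adjusted p = 5.21e-24) and 6.35 without VTA replicate 1. Foxa2, a forkhead factor of the ventral midbrain floor, was at 17.9, 17.9 and 16.0 TPM against 0.154, 0 and 0.310 TPM, 4.79 (4.76) higher. Nr4a2 (Nurr1), which drives dopamine neuron genes, was at 86.4, 38.4 and 43.5 TPM against 3.35, 2.13 and 2.05 TPM. Unlike Th, its highest library was VTA replicate 1, and the log2 difference was 4.16, or 3.81 without that library. Pitx3, a homeobox factor of dopamine neurons, went the other way, at 3.22, 14.1 and 22.4 TPM against 0.887, 0.776 and 0.350 TPM. Its difference was 3.23, and 4.00 without VTA replicate 1. With only the 6 libraries setting the spread, the adjusted p of Pitx3 was 0.0925. En2 (2.82, and 3.09 without VTA replicate 1), Bnc2 (2.37 and 2.39), Foxa1 (2.01 and 1.82) and Ebf3 (1.19 and 0.84) were also called, and Ebf3 lost the call without VTA replicate 1. Lmx1b (1.17 and 1.27) and Otx2 (1.33 and 1.34) were not called, although their libraries did not overlap. Every VTA library was above every LHA library for 5.54% of all genes tested. Lmx1a was at 4.73, 5.70 and 3.91 TPM in VTA and at 4.50, 3.68 and 5.39 TPM in LHA, so that the regions overlapped for this dopamine neuron factor.

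Receptors and survival factors of dopamine neurons gave 12 of 18 genes called higher in VTA, 13 without VTA replicate 1, and 0 higher in LHA, with a median of 1.85, and of 1.82 without that library. Ret, the receptor subunit for GDNF family factors, was at 185, 219.8 and 243 TPM against 28.2, 31.2 and 33.5 TPM, 2.78 (2.88) higher. Sncg, gamma-synuclein, was at 429, 374 and 548 TPM against 45.7, 43.2 and 54.7 TPM, 3.21 (3.23) higher. Neither overlapped. Gucy2c, a guanylyl cyclase receptor, was 3.90 (4.20) higher, and Dlk1 was 1.93 (1.84) higher. Ntsr1, a receptor for neurotensin, was at 34.6, 42.0 and 50.1 TPM in VTA and at 9.64, 11.2 and 14.8 TPM in LHA, while its ligand gene Nts had the reverse order. Cck, a peptide made by part of the dopamine neurons, was at 113 ± 35.1 and 58.9 ± 25.0 TPM and was not called. Calb1, which marks a subset of VTA dopamine neurons, was at 94.0, 65.0 and 37.0 TPM in VTA and at 109, 114 and 88.5 TPM in LHA and was not called.

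Dopamine receptor genes split by type. Drd2, which encodes the inhibitory D2 receptor and its autoreceptor form, was at 104, 89.2 and 109 TPM in VTA and at 14.0, 17.1 and 19.3 TPM in LHA. The regions did not overlap, and the log2 difference was 2.56 ± 0.48 (limma adjusted p = 0.00011) and 2.53 without VTA replicate 1. Drd1 and Drd5, the stimulatory receptors, were lower in VTA: Drd1 was at 0.820, 0.611 and 0.883 TPM against 5.16, 2.62 and 3.01 TPM, and Drd5 at 0.827, 0.963 and 0.671 TPM against 3.39, 2.38 and 3.42 TPM. Their differences were -1.65 and -1.42, and both kept the call without VTA replicate 1, at -1.68 and -1.43. When only the 6 libraries set the spread, Drd1 and Drd5 had adjusted p = 0.0679 and 0.0597. Drd3 and Drd4 were too low to be tested, with at most 8 estimated counts in a library.

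Nicotinic acetylcholine receptor subunits showed which subunits differ between the regions. Of 13 subunit genes 9 were tested, and 5 were called higher in VTA, 6 without VTA replicate 1, and 0 in LHA. Chrna6 was at 77.2, 102 and 121 TPM in VTA and at 1.40, 1.42 and 2.50 TPM in LHA, 5.47 (5.65) higher, and Chrnb3 at 44.6, 33.8 and 37.5 TPM against 0.577, 0.678 and 0.615 TPM, 5.11 (5.01) higher. These subunits join in receptors typical of dopamine neurons. Chrna5 (3.08, and 3.28 without VTA replicate 1), Chrna3 (1.66 and 1.48) and Chrna4 (1.32 and 1.41) were also called. Chrnb2, at 33.2 ± 8.07 and 38.2 ± 1.55 TPM, and Chrna7, at 13.6 ± 2.52 and 11.8 ± 0.827 TPM, were not called.

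Factors of midbrain and tegmental GABA neurons and neighbouring nuclei were also higher in VTA, with 11 of 15 tested genes called, 11 without VTA replicate 1, and 0 higher in LHA. Their median was 1.32, and 1.83 without that library. Pou4f1 (Brn3a), a POU factor of the red nucleus and habenula among other sites, was at 20.6, 16.5 and 20.4 TPM in VTA and at most 0.171 TPM in LHA, 5.04 (4.98) higher. Gata3 was at 11.8, 20.2 and 25.2 TPM against 0.349, 0.230 and 0.0691 TPM, and Pax5 at 14.7, 10.6 and 24.0 TPM against 0.366, 0.241 and 0.342 TPM. No LHA library reached a VTA library for any of the 3 genes. Exons of Gata3 overlap those of 9230102O04Rik on the same strand, a gene at 0.385, 2.18 and 2.35 TPM in VTA. Gata3 (4.72, and 5.03 without VTA replicate 1), Tal1 (2.55 and 2.96), Gata2 (1.03 and 1.28) and Sox14 (2.86 and 3.37) act in midbrain GABA neurons. Cnpy1, a gene of the midbrain and hindbrain border, was 4.51 (4.65) higher in VTA and was higher still in the cerebellum.

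VTA libraries differed among themselves in genes of cells that border the dopamine neurons. Tph2, the enzyme of serotonin synthesis in neurons, was at 1.66, 48.0 and 13.2 TPM in VTA and at 0.130, 0.559 and 0.386 TPM in LHA. Slc6a4, the serotonin transporter, was at 1.02, 26.5 and 7.52 TPM against 0.0416, 0.0448 and 0.0824 TPM. Both were highest in VTA replicate 2 and lowest in VTA replicate 1, and every VTA library was above LHA. Ucn, urocortin, a peptide of the Edinger-Westphal nucleus, was at 2.66, 41.8 and 7.48 TPM in VTA and was listed at 0 in every LHA library, again with VTA replicate 2 the highest. Its 166 estimated counts in VTA against 0 in LHA put it at least 58-fold higher when a floor of 3 counts is set over the LHA group. VTA replicate 2 held 133 of those counts, and the other 33 put it at least 17.8-fold higher. Rln3, relaxin-3, of the nucleus incertus and midline midbrain, was at 1.87, 17.1 and 36.2 TPM against 0.466, 0.752 and 0.461 TPM, with VTA replicate 3 the highest. The fitted differences of Tph2, Slc6a4, Ucn and Rln3 were 3.75, 3.63, 4.35 and 3.45, and 4.94, 4.73, 5.2 and 4.59 without VTA replicate 1. With only the 6 libraries setting the spread, Tph2, Slc6a4 and Ucn had adjusted p = 0.179, 0.164 and 0.09 and were not called. How far serotonin neurons in the punches bear on other VTA differences was not tested.

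On the LHA side the orexin and MCH genes had the largest differences of all tested genes. Hcrt was at 1006, 1684 and 2065 TPM in LHA replicates 1, 2 and 3 and at 0.465, 0.502 and 2.21 TPM in VTA. The VTA values rest on 2, 2 and 9 estimated counts, against 3866, 6009 and 8007 in LHA. The log2 difference was -10.11 ± 0.50 (limma adjusted p = 8.34e-20), and -9.85 without VTA replicate 1. Pmch was at 4259, 5013 and 5660 TPM in LHA and at 3.37, 3.25 and 5.34 TPM in VTA, a difference of -10.14 ± 0.56, and of -10.05 without VTA replicate 1. LHA had the highest mean of both genes among the 18 regions, and the next was the ventromedial hypothalamic nucleus (VMH), at 857 TPM for Hcrt and 3783 TPM for Pmch. LHA replicate 1 was the lowest and LHA replicate 3 the highest for both. Exons of Pmch overlap those of Parpbp on the opposite strand, and Parpbp was at 2.17 to 3.48 TPM in LHA and 0.214 to 0.316 TPM in VTA.

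Of the 13 tested genes that mark orexin and MCH neurons or receive their peptides, 5 were called higher in LHA, 4 without VTA replicate 1, and 0 higher in VTA, and the list's median was -0.21, or -0.23 without that library. Pdyn, prodynorphin, which orexin neurons also make, was at 26.4, 33.2 and 35.6 TPM against 0.557, 2.73 and 1.99 TPM. Nptx2, a pentraxin of orexin neurons, was at 17.8, 23.6 and 20.9 TPM against 1.40, 2.65 and 2.41 TPM. Both were separate between the regions, with differences of -3.97 and -3.02, and of -3.50 and -2.80 without VTA replicate 1. Lhx9, a factor in orexin neuron development, was -1.54 and lost the call without VTA replicate 1, at -1.39. Cartpt, a peptide gene that many MCH neurons express, was at 126, 302 and 57.6 TPM in VTA and at 87.6, 146 and 129 TPM in LHA, so that the LHA range lay inside that of VTA. The orexin receptor gene Hcrtr1 was at 3.09, 11.2 and 9.03 TPM in VTA and 4.01, 4.74 and 6.66 TPM in LHA, with a difference of 0.41 ± 0.40, and of 0.93 ± 0.41 without VTA replicate 1. The other orexin receptor gene, Hcrtr2, differed by -0.39 ± 0.25 (-0.41), with every VTA library below every LHA library, and the MCH receptor gene Mchr1 by -0.21 ± 0.28 (-0.06). The order seen for Hcrtr2 held for 23.1% of all genes tested, so it is a description only. None of the 3 receptor genes was called in either fit, which does not show that the regions hold the same amounts.

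Of 41 neuropeptide precursors tested, 19 were called higher in LHA and 4 in VTA, with 12 and 3 without VTA replicate 1. The list's median was -0.84, and -0.75 without that library. Galanin (Gal) was at 32.8, 31.7 and 35.8 TPM in LHA and at 2.49, 1.53 and 1.68 TPM in VTA, and thyrotropin-releasing hormone (Trh) at 44.7, 27.4 and 28.6 TPM against 0.864, 2.71 and 2.90 TPM. Neurotensin (Nts) was at 56.9, 57.8 and 76.4 TPM against 10.4, 13.4 and 11 TPM. The 3 genes did not overlap between the regions, and their differences were -3.84, -3.75 and -2.40, and -4.01, -3.33 and -2.33 without VTA replicate 1. Tac2, neurokinin B, was at 69.2, 58.5 and 66.1 TPM in LHA and at 13.5, 0.614 and 0.400 TPM in VTA. With only the 6 libraries setting the spread, the adjusted p of Tac2 was 0.101. VTA replicate 1 held most of the VTA signal, and the difference went from -4.75 to -6.02 without it. The LHA calls lost without that library were those of Tac1 (-2.22, and -2.38 without it), Sst (-2.01 and -1.63), Ghrh (-1.71 and -1.26), Vgf (-1.39 and -0.86), Ucn3 (-1.20 and -1.14), Nppc (-1.05 and -0.57), Pnoc (-1.01 and -0.49) and Nmb (-1.003 and -0.75), whose exons overlap Sec11a. Tac1, Sst, Ghrh and Ucn3 stayed past a difference of 1 in size and lost the call on the adjusted p. The VTA call of Npb (1.21 and 1.22) was lost in the same way, and Pomc was gained in LHA. Grp, gastrin-releasing peptide, kept its call in VTA at 1.90 (1.80).

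Avp and Oxt, the vasopressin and oxytocin genes of the paraventricular and supraoptic nuclei, were also among the leading LHA genes. Avp was at 92.6, 68.5 and 80.1 TPM in LHA and at 0, 0 and 0.251 TPM in VTA, where the last value is 1 estimated count. Oxt was at 44.7, 40.7 and 45.8 TPM in LHA and was listed at 0 in every VTA library. Its 435 estimated counts put it at least 138-fold higher in LHA, with a floor of 3 counts over the VTA group. The fitted differences of -7.13 and -6.47, and -7.03 and -6.47 without VTA replicate 1, depend on the pseudocount. Neither gene was highest in LHA. The paraventricular nucleus (PVH) had 1366 TPM of Oxt and ARH 941 TPM of Avp, and LHA ranked 4th for both. Of 9 tested genes that mark other hypothalamic nuclei, 6 were called higher in LHA, 5 without VTA replicate 1, while Agrp (1.42 ± 0.939 TPM in LHA) was not called in either fit.

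Hypothalamic and forebrain transcription factors had a median difference of -1.83, and of -1.95 without VTA replicate 1. Of 28 tested, 19 were called higher in LHA and 0 in VTA, and 20 and 0 without VTA replicate 1. Dlx1, a homeobox factor of forebrain GABA neurons, was at 33.1, 46.5 and 33.3 TPM in LHA and at 0.609, 0 and 0.320 TPM in VTA, a difference of -5.61 ± 0.33 (-5.88). Isl1, a LIM factor of hypothalamic neurons, was at 17.8, 21.1 and 17.3 TPM against 0.243, 0 and 0.0982 TPM. Both were near 0 in VTA. Isl1 differed by -4.98 (-5.13). Dlx6 (-4.55, and -4.98 without VTA replicate 1), Dlx2 (-3.84 and -3.90), Dlx5 (-3.80 and -4.10) and Lhx6 (-3.25 and -3.39) shared that direction. Nkx2-1, which patterns the hypothalamus, was at 7.74, 7.87 and 11.9 TPM in LHA and at 3.76, 0 and 0.0900 TPM in VTA, so that VTA replicate 1 held nearly all of the VTA signal, as for Tac2, and the difference went from -3.14 to -4.13 without it. Nkx2-2 (-0.11), Lhx1 (-0.01) and Tbx3 (0.03) were not called.

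Receptors for peptides and hormones gave 14 of 51 called higher in LHA and 2 in VTA, and 9 and 2 without VTA replicate 1, with a median of -0.56, and of -0.53 without that library. Npy2r, a receptor for neuropeptide Y, was at 13, 12.3 and 9.84 TPM in LHA and at 1.37, 1.96 and 1.3 TPM in VTA. Galr1, a galanin receptor, was at 4.49, 3.22 and 4.44 TPM against 0.914, 0.418 and 0.445 TPM, and the receptor for glucagon-like peptide 1, Glp1r, at 3.83, 3.42 and 3.23 TPM against 0.509, 0.864 and 0.613 TPM. The regions did not overlap for any of them, and the differences were -2.58, -2.08 and -1.79, and -2.53, -2.28 and -1.69 without VTA replicate 1. Crhr2, a receptor for urocortins, was -2.01 (-1.73), and with only the 6 libraries setting the spread its adjusted p was 0.0795. The VTA pair was Ntsr1 and Ghsr, the ghrelin receptor, at 4.43, 3.87 and 4.27 TPM in VTA and 1.15, 1.31 and 1.63 TPM in LHA, 1.34 (1.3) higher. The leptin receptor Lepr was at 2.94, 1.89 and 7.49 TPM in VTA and 2.23, 1.66 and 2.37 TPM in LHA and was not called.

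Of 12 GABA and glutamate neuron genes, 3 were called higher in LHA and 0 in VTA with all libraries, and 1 each without VTA replicate 1. The list's median was -0.32, and -0.22 without that library. Over all genes the shares called were 3.89% higher in LHA and 1.81% higher in VTA, and 1.85% and 1.29% without VTA replicate 1. Gad1, which makes GABA, was at 95.1, 366 and 367 TPM in VTA and 617, 624 and 472 TPM in LHA, and Slc32a1, the vesicular GABA transporter, at 37.3, 157 and 118 TPM against 184, 214 and 218 TPM. The lowest value of both was in VTA replicate 1, and without it the differences went from -1.28 to -0.63 and from -1.21 to -0.59 and were no longer called. Slc17a6, the glutamate transporter VGLUT2, was at 139.9, 116 and 108 TPM against 109, 110.2 and 126 TPM, with overlapping ranges. Of 29 channel genes linked to pacemaking, 4 were called higher in VTA and 1 in LHA, and 6 and 0 without VTA replicate 1. The other 24 were not called with all libraries, and the median of the channel list was -0.01, and 0.12 without that library. Trpc6, a cation channel, was at 11.4, 10.2 and 10.7 TPM in VTA and 1.27, 1.72 and 1.16 TPM in LHA, 2.59 (2.56) higher. The potassium channel genes Kcnd3 (1.67, and 1.43 without VTA replicate 1) and Kcns3 (1.53 and 1.88) were also called, but with only the 6 libraries setting the spread their adjusted p was 0.0686 and 0.0982. Kcnj9, a GIRK channel subunit, was -1.21 and lost its call without VTA replicate 1, while its partner Kcnj6 gained a call in VTA, at 1.06.

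**Figure D3:**
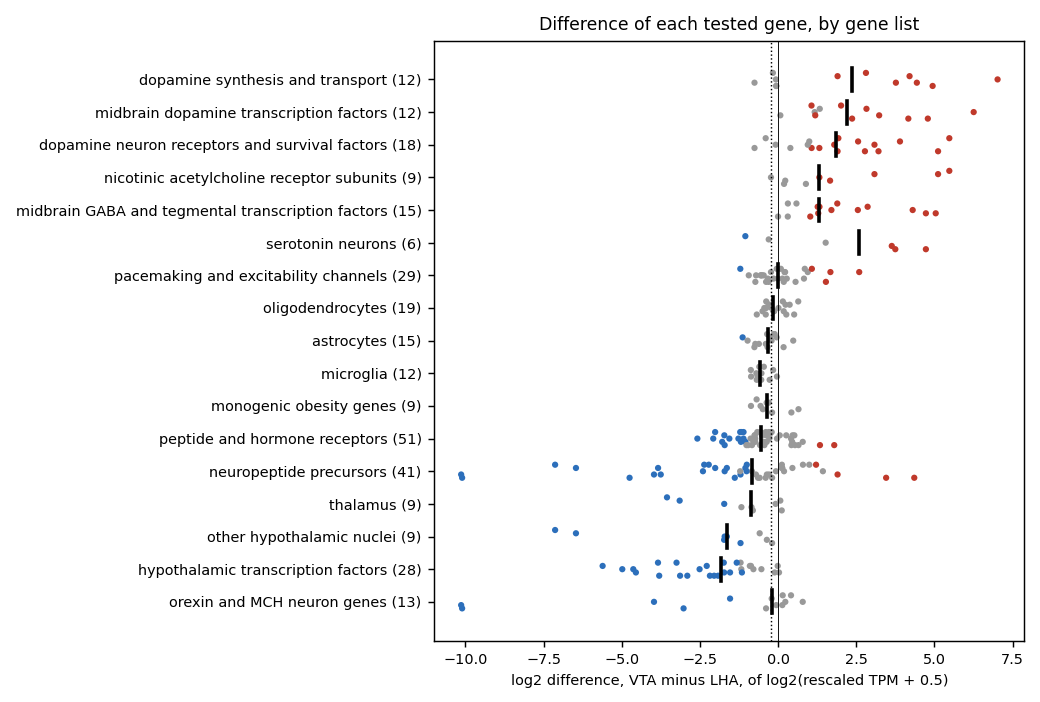
Log2 difference (VTA minus LHA, of log2(rescaled TPM + 0.5)) of each tested gene in 17 lists, with the number tested in parentheses, genes called higher in VTA in red, higher in LHA in blue and not called in grey. Black bars mark list medians and the dotted line the median of all genes, -0.24, with the medians of dopamine synthesis, dopamine transcription factors, and dopamine neuron receptors and survival factors to its right and that of the hypothalamic transcription factors to its left.

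Markers of neighbouring regions varied between LHA libraries. Prkcd, abundant in thalamic neurons, was at 127, 145 and 32.4 TPM in LHA and at 3.04, 9.67 and 9.97 TPM in VTA. Ramp3, a receptor accessory protein, was at 60.5, 57.9 and 19.8 TPM against 0.269, 1.42 and 1.33 TPM, and Gabrd, a GABA receptor subunit, at 20.3, 20.6 and 4.10 TPM against 0.109, 0.414 and 0.229 TPM. LHA replicate 3 was the lowest LHA library for each of these genes, for the thalamic gene Gbx2 (3.26, 3.51 and 1.41 TPM) and for Slc17a7 (35, 36.1 and 5.68 TPM), while it was the highest for Hcrt and Pmch. All remained above every VTA library except Slc17a7, for which VTA replicate 2 was at 9.33 TPM. The differences of Prkcd, Ramp3, Gabrd, Gbx2 and Slc17a7 were -3.55, -4.91, -4.09, -1.72 and -3.19, and -3.04, -4.48, -3.95, -1.87 and -2.17 without VTA replicate 1. With only the 6 libraries setting the spread, Prkcd, Gbx2 and Slc17a7 had adjusted p = 0.0795, 0.103 and 0.276. Of the thalamus list 3 of 9 genes were called higher in LHA, of the striatum list 3 of 8, and of the cortex and hippocampus list 3 of 6, beside 1 of those 6 called higher in VTA (Neurod6, 1.51). Over all genes 3.89% were called higher in LHA and 1.81% higher in VTA, and 1.85% and 1.29% without VTA replicate 1. Without VTA replicate 1 the LHA counts of the 3 lists were 4, 2 and 3, and Neurod6 lost its call, at 0.91, so that 0 genes of these lists were called higher in VTA. The summed level of the thalamus list was 500 to 614.7 TPM in LHA and 388 to 434 TPM in VTA. Chat, the enzyme of acetylcholine synthesis, was at 7.70, 0.911 and 2.04 TPM in LHA, with LHA replicate 1 the highest. Its difference of -1.76 was called, and the call was lost without VTA replicate 1, at -1.75, and with median-of-ratios scaling, at -1.65. Tmem254c was at 15.4, 19.9 and 13.3 TPM against 0, 1.04 and 0 TPM, but it has near-identical copies and the split of reads among them is uncertain. The part of neighbouring tissue in the LHA differences was not tested.

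Glial, vascular and blood genes are given beside the shares called over all genes, 1.81% higher in VTA and 3.89% higher in LHA. Without VTA replicate 1 those shares were 1.29% and 1.85%. At such shares a short list can hold no called gene, so these counts are descriptions. No gene was called of 19 for oligodendrocytes, 12 for microglia, 5 for blood, 5 for choroid plexus or 6 for meningeal fibroblasts, with or without VTA replicate 1. The oligodendrocyte sum was 16640 to 23280 TPM in VTA and 16190 to 20720 TPM in LHA. The blood sum was 709.6 to 1596 TPM in VTA and 1002 to 2672 TPM in LHA, and Hbb-bs, a haemoglobin chain, was at 287, 468 and 251 TPM against 806, 713 and 284 TPM. Slc1a3, the astrocyte glutamate transporter GLAST, was the astrocyte gene of 15 that was called, at 99.9, 85.3 and 95.4 TPM in VTA and 221, 201 and 196 TPM in LHA. Its difference was -1.14 (-1.18), and it was not called with median-of-ratios scaling alone. The microglia sum was 209 TPM in VTA replicate 1 against 391 to 481 TPM in the other 5 libraries. Pecam1, of endothelial cells, was at 132, 22.7 and 34.1 TPM in VTA and 19.2, 20.8 and 20.8 TPM in LHA, and its call was lost without VTA replicate 1. C1ql1 was 1.77 (1.74) higher in VTA and was the gene called of 8 for oligodendrocyte precursors, but it is also made by neurons. Among 6 tested genes of ependyma and tanycytes, Crym was called higher in LHA (-2.40, and -2.17 without VTA replicate 1), at 7.11, 12 and 1.05 TPM in LHA, and with only the 6 libraries setting the spread its adjusted p was 0.226. Of 15 immediate early genes, 4 were called higher in LHA, and Egr1 alone kept its call without VTA replicate 1 (-1.03 and -1.10). Egr1 was not called with median-of-ratios scaling (-0.80), and with only the 6 libraries setting the spread its adjusted p was 0.0613. With that scaling and without VTA replicate 1, 0 of these genes were called.

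**Figure D4:**
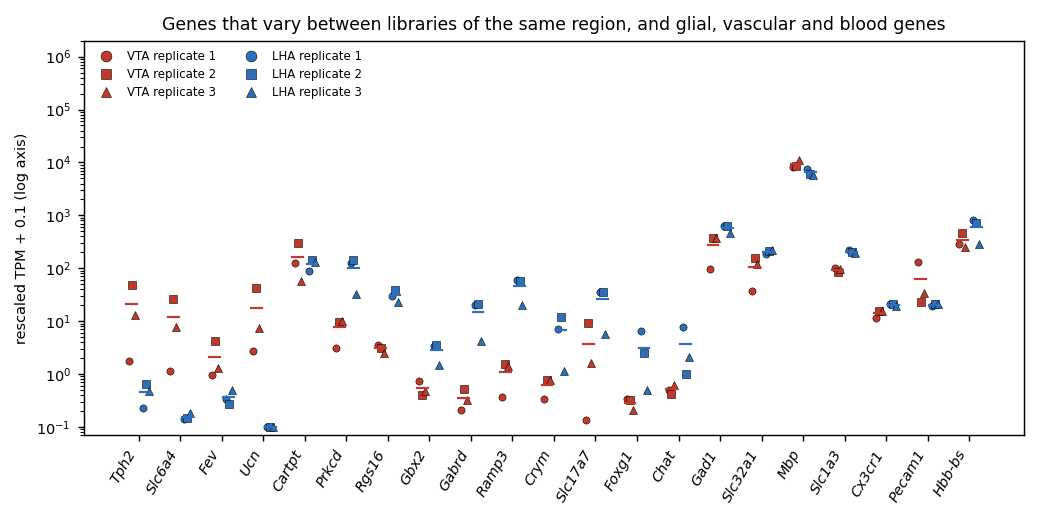
Rescaled TPM + 0.1 (log axis) in each VTA (red) and LHA (blue) library of genes that vary within a region and of glial, vascular and blood genes, with lines at the means. Tph2, Slc6a4 and Ucn are highest in VTA replicate 2, Prkcd, Gabrd and Ramp3 are lowest among LHA libraries in LHA replicate 3, and Gad1 and Slc32a1 are lowest in VTA replicate 1.

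Of 9 monogenic obesity genes, 0 were called with all 6 libraries in the limma fit. Without VTA replicate 1, Pomc and Sim1 were called higher in LHA. Pomc, the precursor of melanocortin peptides, was at 17, 3.84 and 1.13 TPM in VTA and 5.97, 5.72 and 4.08 TPM in LHA, and Sim1, a factor of the paraventricular nucleus, at 1.41, 0.174 and 0.303 TPM against 1.44, 0.960 and 1.72 TPM. VTA replicate 1 was above the other VTA libraries for both, as for Tac2 and Nkx2-1. The melanocortin receptor gene Mc4r was at 1.03 ± 0.389 and 1.74 ± 0.494 TPM. Of 182 tested genes among the 190 that the study collected as associated with obesity, 3 were called higher in VTA (Grp, Tal1 and Tfap2b) and 6 higher in LHA (Calcr, Fign, Lrfn2, Slc22a3, Sema3a and Sema3d), beside 1.81% and 3.89% of all genes. Without VTA replicate 1 the counts were 3 and 5, beside 1.29% and 1.85%, and Calcr and Slc22a3 lost their calls. The median difference of the 182 genes was -0.25, against -0.24 over all genes, and -0.12 without VTA replicate 1, against -0.10. Sema3a, a guidance cue, had values of 6.37, 6.07 and 8.03 TPM in LHA and 1.81, 0.478 and 0.677 TPM in VTA, a difference of -2.39 (-2.76).

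Of the genes called in either fit, 444 were called in both, 498 only with all 6 libraries and 74 only without VTA replicate 1, and 0 were called in opposite directions. Genes with every VTA library above every LHA library numbered 915 (5.54% of those tested), and 3824 (23.1%) had the reverse order. Among the called genes, 219 (73.2%) of those higher in VTA and 527 (82.0%) of those higher in LHA were separate in this way. When the spread was taken from the 6 libraries alone, 79 genes were called higher in VTA and 103 higher in LHA, and 45 of the 74 called genes for which each alternative was computed kept their call, Th and Hcrt among them.

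**Figure D5:**
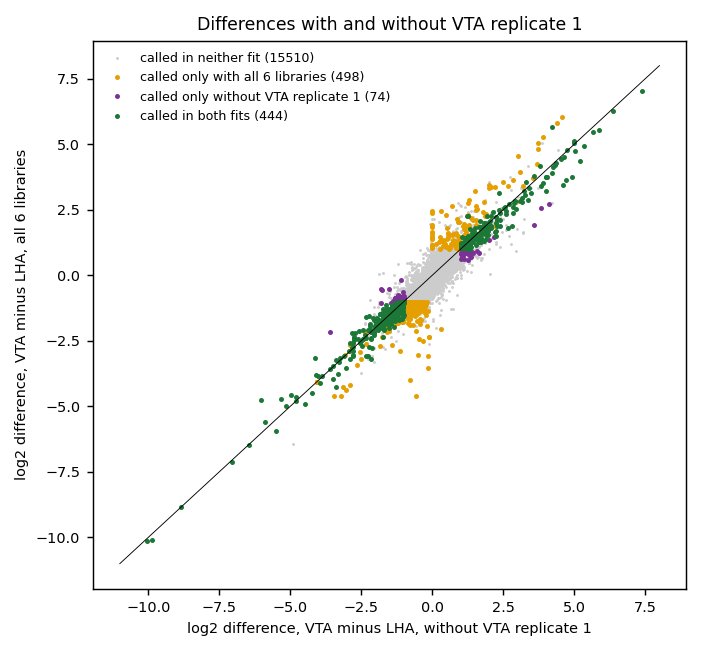
Log2 difference (VTA minus LHA) of each gene without VTA replicate 1 (x axis) and with all 6 libraries (y axis), with 444 genes called in both fits in green, 498 only with all libraries in orange and 74 only without that library in purple. The orange points lie mostly where the difference with all 6 libraries is the larger in size.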

How the data were processed

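The study's mRNA libraries (KAPA strand-specific kit, single reads, CASAVA 1.8.2) were quantified by the authors with kallisto against GRCm38, and the deposited tables hold TPM per gene and estimated counts per transcript. Estimated counts were summed to genes through GENCODE M21 names (107987 of 109282 transcripts matched) and rounded for count tests. Deposited TPM was rescaled without the 13 mt- genes, genes with a mean of at least 0.5 rescaled TPM over the 6 libraries were kept, and log2(rescaled TPM + 0.5) was fitted with limma 3.58.1 (trend, one term per region, 57 adult libraries) and tested for VTA minus LHA, two-sided. The script was tested on simulated data. Alternatives used edgeR 4.0.16 and DESeq2 1.42.0. Replicate numbers were not used to pair the libraries in this fit. No counting interval is given for TPM, and estimated counts without molecular identifiers cover counting error only. Members and lists were chosen with earlier results of these data known. Named genes were Th, Hcrt, the 12 largest differences in each direction called with and without VTA replicate 1, separate, with a mean of at least 5 TPM in the higher region and a gene name (no clone or predicted names), up to 4 called genes per list, the monogenic obesity genes and the dopamine receptors, with uncalled list members given as values. Genes named in a list of lost calls, library contrasts within a region, Sema3a and also Gm11027 and Parpbp were chosen after their values were seen. Some items of the lists are not reported here by name.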

Additional observations from a re-analysis of the deposited data

How the results depend on the processing

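Over 21 alternatives Th was 4.65 to 5.53 higher in VTA on the log2 scale and Hcrt was at -10.69 to -9.22, both called in every one, with values of 4.65 to 5.35 and -10.59 to -9.85 when each library was left out in turn. The counts of called genes (299 higher in VTA and 643 higher in LHA) moved more. Leaving out each library in turn gave 213 to 487 and 305 to 1548, the extremes coming from leaving out VTA replicate 1 (213 and 305) and VTA replicate 2 (487 and 1548). Median-of-ratios scaling gave 458 and 386, and with VTA replicate 1 also left out 241 and 253. Keeping the mt- genes gave 1146 higher in LHA, and a mean of at least 5 TPM gave 181 and 359. The 6 libraries alone gave 79 and 103, edgeR 540 and 371, edgeR without VTA replicate 1 296 and 330, and DESeq2 540 and 355. The 2 settings that combine the left-out library with another choice were added after the data were seen. The cause of these shifts was not tested, except that a higher minimum tests fewer genes (11789). Same-numbered VTA and LHA libraries deviated from their region means with correlations of 0.006, -0.071 and 0.007. These values rest on 3 libraries per region and cannot show whether same-numbered libraries share animals or batches. The replicate block gave 301 and 648 in 57 libraries and 32 and 27 in the 6 libraries alone. Over the genes for which each alternative was computed, no alternative reversed a call. The counts of called genes per list cannot show a reversal. Depth limits genes near 1 TPM, where a few estimated counts set a value.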

Other observations

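Among genes left out of the text by their predicted names, Gm14200 was listed at 0 in every VTA library and was at 270.5, 156 and 282 TPM in LHA replicates 1, 2 and 3, the largest difference after those of Pmch and Hcrt. Gm12338 was at 308 TPM in VTA replicate 2 and listed at 0 in VTA replicates 1 and 3.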
